A study of Mus musculus with 4 samples.

Results

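The nuclear genes of the oxidative phosphorylation system were read from the count table of sorted mouse follicular B (FOB) cells by their symbols. A row was a member where its symbol started with Nduf, Uqcr, Cox4, Cox5, Cox6, Cox7, Cox8 or Atp5, or was Sdha, Sdhb, Sdhc or Sdhd. The 14 symbols that contained "-ps", which marks a pseudogene, were left out. This gave 98 of the 55401 rows of the table, with 47 rows assigned to complex I, 4 to complex II, 8 to complex III, 21 to complex IV and 18 to complex V. Atp5o stood on 2 rows, and the second of them held no count in any library.

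RNA was sequenced from the spleens of C57BL/6 mice that the labels give as 7 weeks old. The WT mice were Hnrnpf fl/fl and carried no Cre, and the Hnrnpf bKO mice were Hnrnpf fl/fl with a Cre that is expressed in B cells and deletes the floxed gene there. Both genotypes therefore shared the floxed alleles, and the control lacked the Cre. There were 2 libraries of each genotype, all from cells sorted as B220+CD93-CD23highCD21low. The sources used here do not say whether a library came from 1 mouse or from pooled mice, so the p-values measure the spread between these samples alone.

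Oxidative phosphorylation takes place in the inner mitochondrial membrane. Complexes I and II pass electrons from NADH and succinate to ubiquinone, complex III passes them on to cytochrome c and complex IV to oxygen, while complexes I, III and IV pump protons that drive ATP synthesis by complex V. Most subunits are encoded in the nucleus and are joined in the mitochondrion to a few subunits encoded by mitochondrial DNA. Resting B cells rely on this system for ATP, and they increase mitochondrial mass and respiration when they are activated.

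The count totals ran from 15698567 to 18908963 for the 4 libraries. Hnrnpf, the targeted gene, was measured at 353 and 349 CPM (counts per 1000000 counts of the library, with totals scaled by TMM) in WT and at 74.4 and 66.7 CPM in Hnrnpf bKO, for a log2 fold change of -2.32 with a standard error (SE) of 0.06. The B cell markers were abundant in all libraries, with summed levels from 19237 to 19909 CPM over 10 genes. Myeloid and neutrophil markers were scarce but uneven, with summed levels of 13.9 and 20.8 CPM in WT and 23.6 and 34.7 CPM in Hnrnpf bKO over 8 genes. Of the 6 that were tested, 4 had a positive log2 fold change and 2 a negative one, and 2, S100a8 (1.53) and S100a9 (1.34), were called higher in Hnrnpf bKO at an adjusted p of at most 0.05, against 4.15% of all tested genes. Itgam had 0.71, Lyz2 0.56, Csf1r -0.21 and Adgre1 -0.86, none of them called. T cell markers summed to 78.0 and 96.5 CPM in WT and to 66.8 and 78.9 CPM in Hnrnpf bKO over 7 genes, with none called. Erythroid markers summed to between 2.40 and 4.65 CPM over 7 genes, platelet markers to between 2.18 and 3.84 CPM over 4 genes and plasma cell markers to between 324 and 351 CPM over 5 genes, again with none called. The part of other cell types in the results below was not tested, and in bulk RNA fewer cells of a type and less RNA per cell cannot be told apart.

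The members were expressed at moderate to high levels in FOB cells. The median over the 87 members that passed the filter on low counts was 24.9 FPKM (fragments per kilobase of exon and 1000000 counted reads, as deposited), against 6.03 FPKM over all 14123 genes that passed. Cox6a1, a subunit of cytochrome c oxidase, was the highest at a mean of 198 FPKM over the 4 libraries, followed by Atp5a1, the alpha subunit of ATP synthase, at 170 FPKM and Cox8a, another cytochrome c oxidase subunit, at 169 FPKM. The highest member of complex I was Ndufa2 at 74.0 FPKM, of complex II Sdha at 69.5 FPKM and of complex III Uqcr10 at 71.1 FPKM. By the median over tested members, complex III was at 39.4 FPKM, complex IV at 38.5 FPKM, complex II at 36.2 FPKM, complex V at 24.4 FPKM and complex I at 16.9 FPKM.

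**Figure D1:**
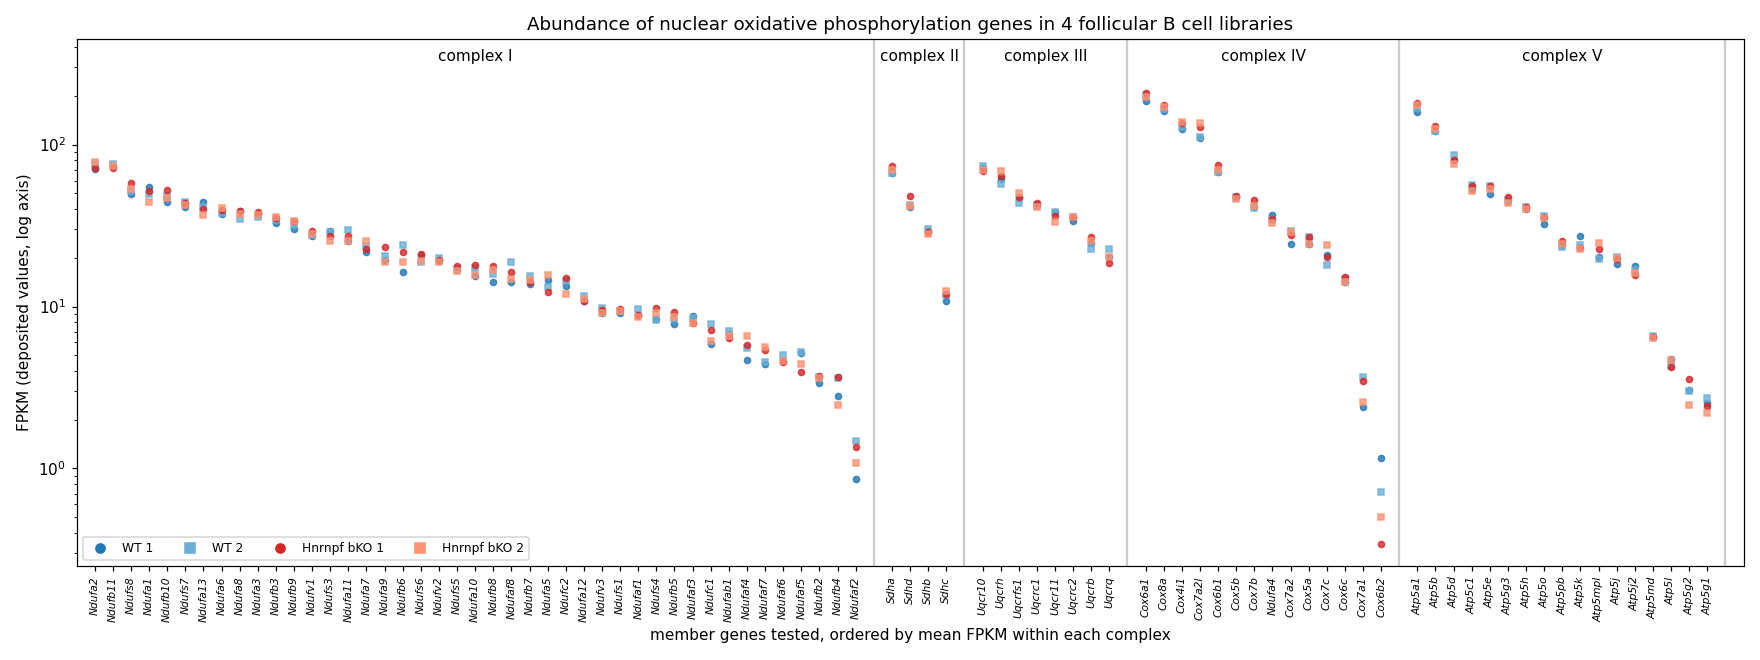
FPKM on a log axis for 86 of the 87 tested members, with 1 point for each of the 4 libraries and members ordered by mean level within each complex. The 4 libraries lie close together for most members, and the widest relative spread is among the lowest genes, such as Cox6b2 at a mean of 0.68 FPKM.

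The exonic size behind the deposited FPKM pools the exons of all annotated isoforms, and this moves the order of levels between genes. It was a median of 1.58 times the length of the main transcript for the tested members, over 2 times for 28 of them and 11.8 times for Atp5l. With counts divided by the length of the main transcript in place of the exonic size, the highest members were Atp5b, the catalytic beta subunit of ATP synthase, at 275 CPM per kilobase, Cox4i1, the regulatory subunit 4 of cytochrome c oxidase, at 268 CPM per kilobase, and Cox6a1 at 243 CPM per kilobase. On this scale the complex medians were 79.2 for complex IV, 75.8 for complex V, 50.3 for complex II, 50.1 for complex III and 29.2 for complex I, in CPM per kilobase. Complex I had the lowest median on both scales, and complex V moved from near the bottom to near the top.

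Comparison of Hnrnpf bKO with WT, by edgeR's quasi-likelihood F test with Benjamini-Hochberg adjustment over the 14123 tested genes, called 1 of the 87 tested members at an adjusted p of at most 0.05. Over all tested genes 6.97% were called, 4.15% as higher and 2.83% as lower. The called member was Cox7a2l, which was higher in Hnrnpf bKO. Without adjustment 9 members had a p under 0.05, against 20.3% of all tested genes, and all 9 had a positive log2 fold change. No member reached a 2-fold change with an adjusted p of at most 0.05, against 0.899% of all tested genes. Among the 83 members averaging 100 counts or more, 1 was called, where 8.94% of the tested genes at such counts were called, so the share of members called was below the background at like counts.

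The differences of the members were small. The median log2 fold change over the tested members was 0.04, against -0.00 over all tested genes. Of the members, 54 had a positive value and 33 a negative one, or 62.1% positive against 49.6% of all tested genes. The groups did not overlap in 40 members (46.0%, against 50.1% of all tested genes). Both Hnrnpf bKO libraries lay above both WT libraries in 28 members (32.2%, against 25.3% of all tested genes) and below both in 12 members (13.8%, against 24.8%). The 95% interval of the difference lay within 1.3-fold in both directions for 66 of the 87 members (75.9%). It lay within 1.5-fold for 83 (95.4%) and within 2-fold for 86 (98.9%), where Cox6b2 was the exception. Of the tested genes averaging 100 counts or more, 67.0%, 88.6% and 98.2% had intervals within these limits. Leaving out 1 library moved the median of the members between 0.00 and 0.08, the lowest without WT replicate 1 and the highest without WT replicate 2, so the size of this shift rests on single libraries.

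**Figure D2:**
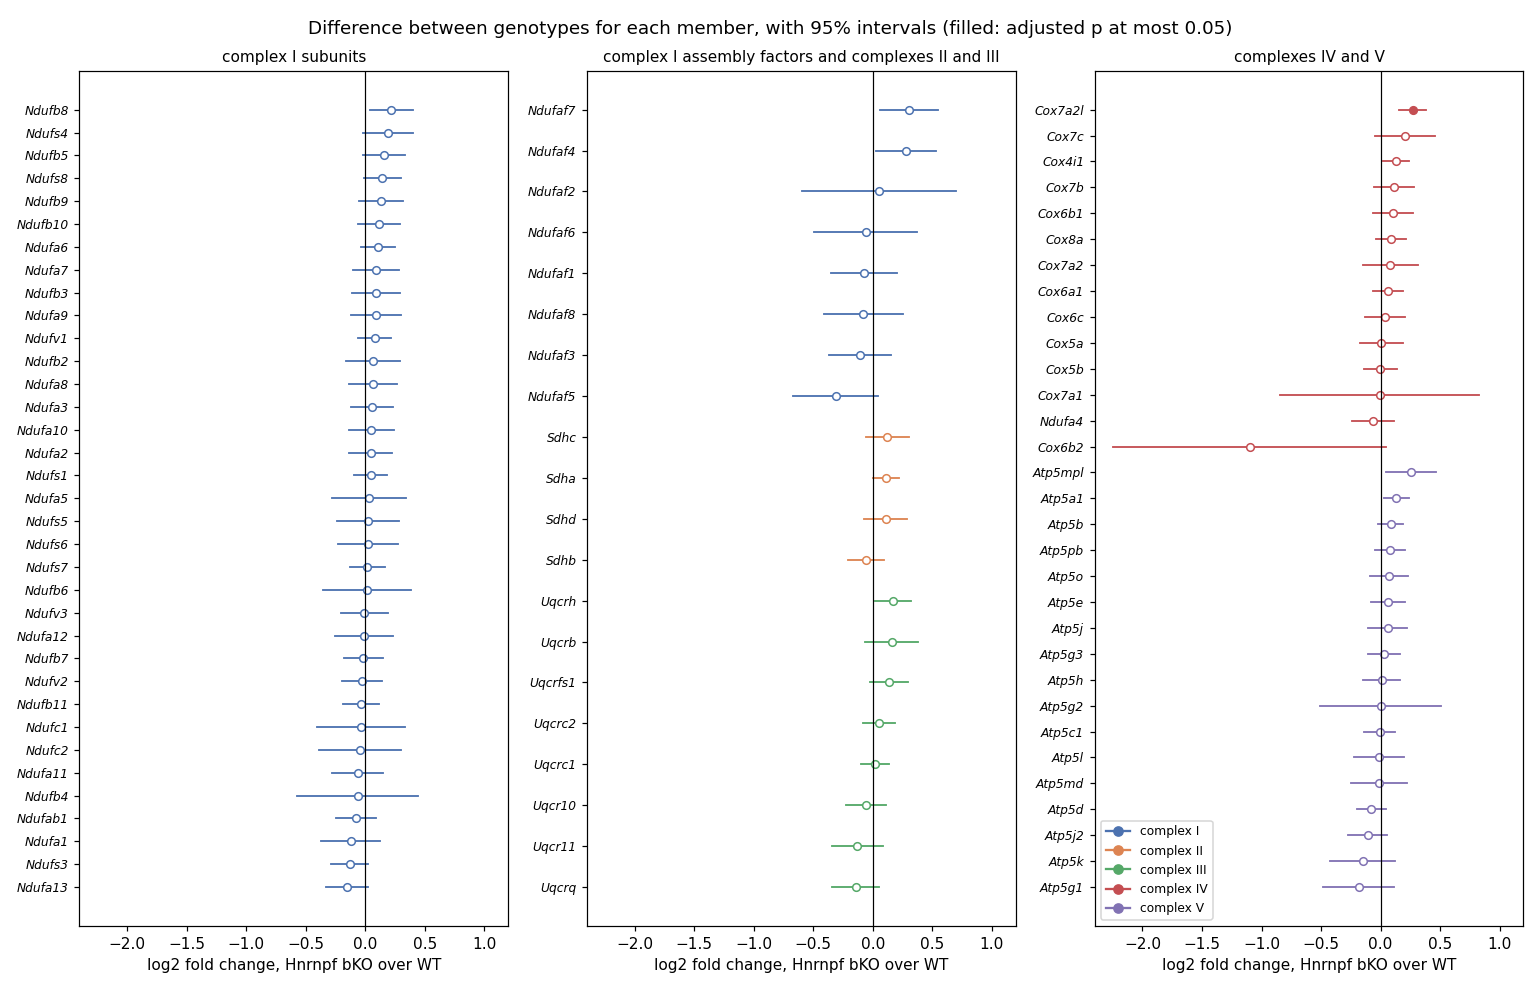
Log2 fold change of Hnrnpf bKO over WT (x axis) for 86 of the 87 tested members, coloured by complex, with the 95% interval of the fit as a line and a filled point for an adjusted p of at most 0.05. Cox7a2l is the single filled point, and most points lie within 0.3 of 0.

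Each pair of libraries gave similar levels for the members. Between the 2 WT libraries the median absolute log2 difference over the members was 0.09, and between the 2 Hnrnpf bKO libraries it was 0.08. Across genotypes it ran from 0.08 to 0.12 for the 4 pairs of libraries. For the tested genes averaging 100 counts or more it was 0.08 within each genotype and ran from 0.11 to 0.13 across them. For the members the range across genotypes began at the level within them, while for the genes at like counts it lay above that level, and WT replicate 1 against Hnrnpf bKO replicate 1 was the widest pair.

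**Figure D3:**
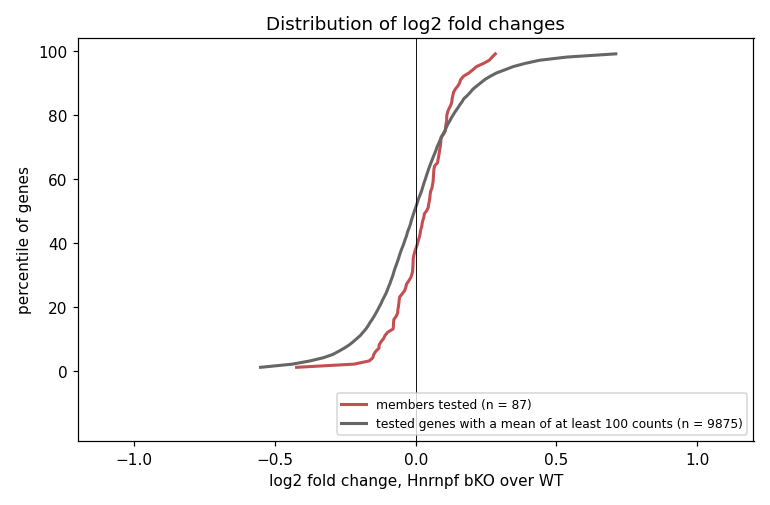
Percentile of genes (y axis) against the log2 fold change of Hnrnpf bKO over WT (x axis) for the 87 tested members and for the 9875 tested genes averaging 100 counts or more. The curve of the members is steeper and lies slightly to the right of 0 at its median of 0.04.

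Summed over the 98 rows, the members took 5382 and 5513 CPM in WT and 5766 and 5640 CPM in Hnrnpf bKO. Both Hnrnpf bKO libraries lay above both WT libraries, with means of 5703 ± 89.1 and 5448 ± 92.6 CPM (SD, n = 2 each), a difference of 4.67%. In an exact permutation test on 2 libraries against 2, the smallest two-sided p is 0.333, so no such sum could pass a threshold of 0.05. By complex, the mean in Hnrnpf bKO was higher by 3.25% for complex I, 6.18% for complex II, 2.82% for complex III, 7.76% for complex IV and 4.46% for complex V. Complex IV, at 963 and 982 CPM in WT against 1053 and 1043 CPM in Hnrnpf bKO, had the largest of these differences. This rank rests on Cox7a2l, without which complex IV was at 801 and 818 CPM in WT and 863 and 841 CPM in Hnrnpf bKO, a difference of 5.22%, and the sum over all members differed by 4.19%. Abundant genes weigh most in such sums. Complex V had means of 1921 CPM in WT and 2006 CPM in Hnrnpf bKO. Within it Atp5a1 went from 510 to 559 CPM and Atp5b from 512 to 542 CPM, while its median log2 fold change was 0.01. Complex II had means of 431 and 457 CPM, and within it Sdha went from 276 to 298 CPM. In complex I the nearest pair of libraries across genotypes was almost level, at 1630 CPM in WT replicate 2 and 1631 CPM in Hnrnpf bKO replicate 2. The sum of the 13 mitochondrially encoded subunits was at 15008 and 16055 CPM in WT and 14772 and 15235 CPM in Hnrnpf bKO. Its mean went from 15531.4 CPM in WT to 15003.5 CPM in Hnrnpf bKO, or -3.40%, with overlapping groups. This difference rests on mt-Co1, the most abundant of them, with means of 7270 CPM in WT and 6671 CPM in Hnrnpf bKO. Of the 13, 7 had a positive log2 fold change and 6 a negative one.

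**Figure D4:**
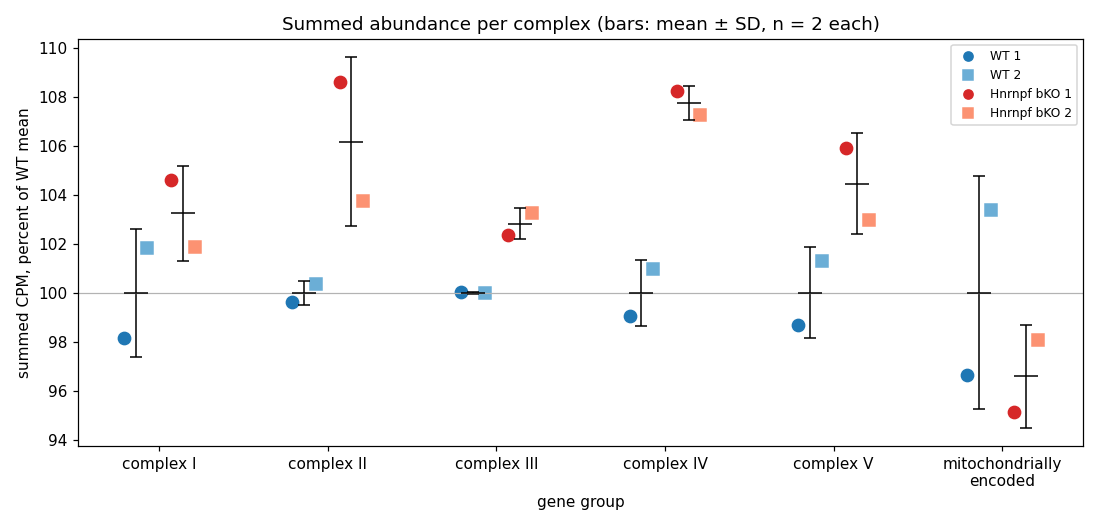
Summed CPM of each complex and of the mitochondrially encoded subunits, as percent of the WT mean, with 1 point for each library and bars for the mean ± SD (n = 2 each); the y axis does not start at 0. The 2 Hnrnpf bKO points lie above both WT points for each nuclear complex, while the groups overlap for the mitochondrially encoded subunits. For most of the latter the split of reads with near-identical copies is uncertain.

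Cox7a2l (ENSMUSG00000024248, GRCm38 chr17:83501918-83517330, minus strand) encodes a factor that joins complexes III and IV into respiratory supercomplexes, and C57BL/6 mice carry a short form of its protein. It had 2658 and 3109 counts in WT and 2981 and 3625 counts in Hnrnpf bKO. Scaled to library size this was 163 and 163 CPM in WT, with 190 and 202 CPM in Hnrnpf bKO. The WT libraries were nearly equal and both Hnrnpf bKO libraries stood above them. The mean rose from 163 ± 0.637 to 196 ± 8.62 CPM (SD, n = 2 each), a log2 fold change of 0.27 with an SE of 0.05 and a 95% interval from 0.15 to 0.39, or from 1.11-fold to 1.31-fold, and edgeR's quasi-likelihood test gave an adjusted p of 0.00975. Across the alternatives the log2 fold change ran from 0.22 to 0.31, and the call was lost without Hnrnpf bKO replicate 2 (adjusted p = 0.0504) and with limma on log2(FPKM + 0.1) and log2(FPKM + 1) (adjusted p = 0.0973 and 0.0991). A near-identical copy, Gm6969, 97.7% identical over 31.8% of the main transcript, had 14 and 14 counts in WT and 17 and 24 counts in Hnrnpf bKO.

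**Figure D5:**
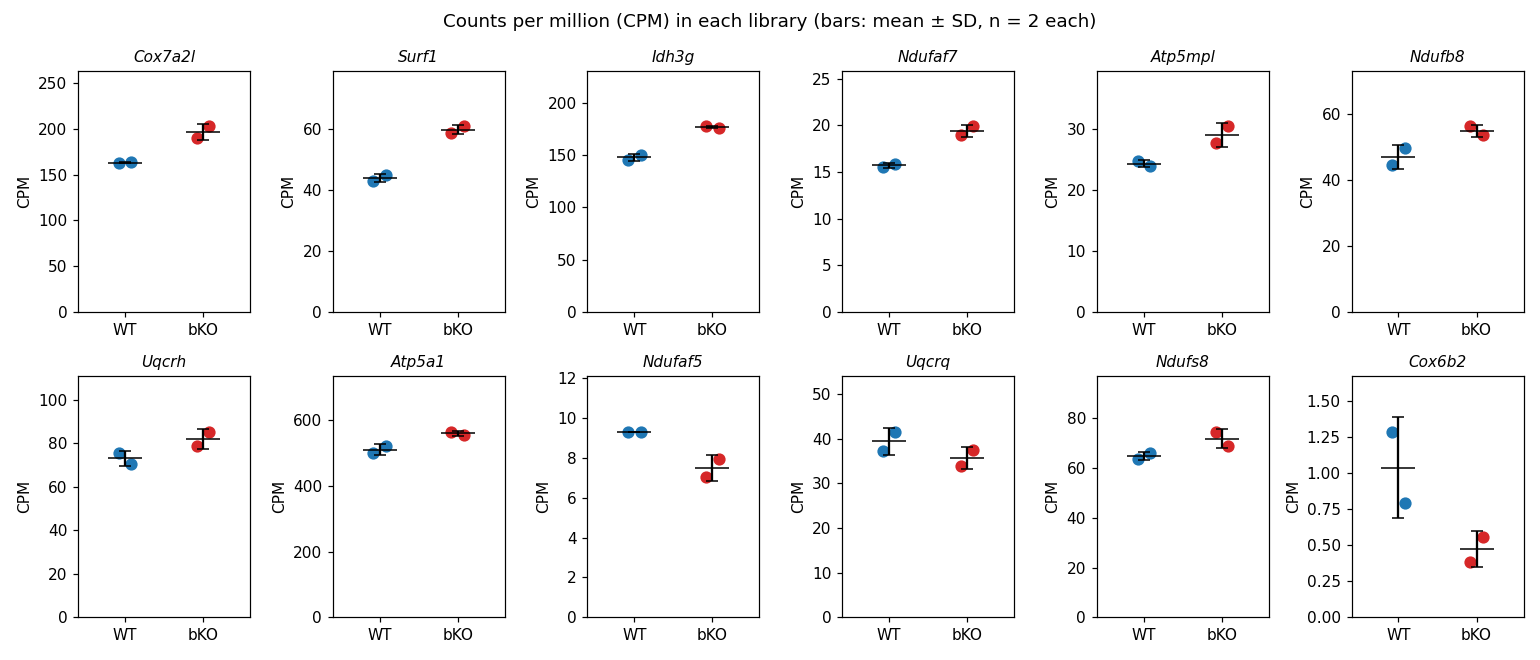
CPM in each library for 12 genes, each panel with its own y axis from 0, points for libraries and bars for the mean ± SD (n = 2 each). Cox7a2l, Surf1 and Idh3g passed the test and are higher in Hnrnpf bKO, while the other 9 panels show genes that did not pass.

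Complex I, the NADH dehydrogenase, had 44 tested rows and none was called. Its median log2 fold change was 0.03, which ran from -0.01 to 0.08 when each library was left out. Without adjustment 3 of its members (6.82%) had a p under 0.05, against 20.3% of all tested genes. The 7 core subunits hold the flavin, the iron-sulfur clusters and the quinone site between them. Ndufs8, which binds iron-sulfur clusters, was at 63.7 and 66.0 CPM in WT and 74.4 and 68.9 CPM in Hnrnpf bKO (log2 fold change 0.14, SE 0.07), and Ndufs3, at the other end, at 64.0 and 62.1 CPM in WT and 59.4 and 55.9 CPM in Hnrnpf bKO (-0.13, SE 0.07). These core subunits lay on opposite sides of 0, each with groups that did not overlap and neither past the test. Ndufv1, which holds the flavin, had a value of 0.08, Ndufs1 0.05, Ndufs7 0.02 and Ndufv2 -0.03.

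The 29 accessory subunits of complex I, which surround and stabilise the core, had a median log2 fold change of 0.03 and ran from -0.15 to 0.22. Ndufb8, in the membrane arm, was at 44.4 and 49.6 CPM in WT and 56.2 and 53.5 CPM in Hnrnpf bKO. Its groups did not overlap, and its log2 fold change of 0.22 (SE 0.08) had an adjusted p of 0.141 by edgeR's quasi-likelihood test. Ndufa13, also known as a cell death regulator, was the lowest, at 55.7 and 51.0 CPM in WT and 49.9 and 46.1 CPM in Hnrnpf bKO (-0.15, SE 0.08). Ndufa2, the highest accessory subunit by FPKM, had a log2 fold change of 0.05 with overlapping groups.

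The complex I assembly factors, which help build the enzyme and are not part of it, varied most. Their 8 members had a median log2 fold change of -0.07 and included both extremes of the complex. Ndufaf7, an arginine methyltransferase that acts early in assembly, was at 15.5 and 15.9 CPM in WT and 18.9 and 19.9 CPM in Hnrnpf bKO, for a log2 fold change of 0.31 (SE 0.11). It was the member nearest to the threshold among those not called, with an adjusted p of 0.133 by edgeR's quasi-likelihood test. Ndufaf5, which hydroxylates Ndufs7, was at 9.29 and 9.30 CPM in WT and 7.02 and 7.93 CPM in Hnrnpf bKO, for a log2 fold change of -0.31 (SE 0.17, adjusted p = 0.318 by the same test). Ndufaf4 had a log2 fold change of 0.28 (SE 0.12), with groups that did not overlap. These genes are low, with medians of 233 counts and 5.32 FPKM over the 8, and the intervals of 2 of them lay within 1.3-fold.

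Complex II, succinate dehydrogenase, links the electron transport chain to the tricarboxylic acid cycle and is encoded by nuclear genes alone. Sdha, its flavoprotein, was at 277 and 275 CPM in WT and 305 and 291 CPM in Hnrnpf bKO, for a log2 fold change of 0.11 (SE 0.05). Sdhc and Sdhd, the membrane anchors, had values of 0.12 and 0.11, and Sdhb, the iron-sulfur subunit, -0.06. All 4 intervals lay within 1.3-fold, as did those of 67.0% of the tested genes averaging 100 counts or more, and none was called.

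Complex III, the cytochrome bc1 complex, had 8 tested rows, with none called and a median log2 fold change of 0.03. The core proteins Uqcrc1 and Uqcrc2 had values of 0.02 and 0.05, and the Rieske iron-sulfur protein Uqcrfs1 0.14 (SE 0.07). Uqcrh, the hinge protein that contacts cytochrome c1, was at 75.7 and 70.7 CPM in WT and 78.8 and 85.4 CPM in Hnrnpf bKO (0.17, SE 0.07, adjusted p = 0.195 by edgeR's quasi-likelihood test). Uqcrq, a small subunit also called the ubiquinone-binding protein, was at 37.2 and 41.5 CPM in WT and 33.9 and 37.4 CPM in Hnrnpf bKO (-0.14, SE 0.09), and its groups overlapped. Uqcr10, the highest by FPKM, had -0.06. It has a transcribed near-copy, 4930481A15Rik, 96.8% identical over 42.6% of the main transcript, which held 348 and 422 counts in WT and 243 and 293 counts in Hnrnpf bKO.

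Complex IV, cytochrome c oxidase, had 14 tested rows and a median log2 fold change of 0.07, with 10 positive and 4 negative. This was 71.4% positive, against 49.6% of all tested genes, whose median was -0.00. The complex IV median moved when each library was left out, over a range given in the closing section. Besides Cox7a2l, no complex IV row was called. Cox4i1 was at 195 and 197 CPM in WT and 212 and 216 CPM in Hnrnpf bKO, so that the groups lay apart by more than the spread within either, with a log2 fold change of 0.13 (SE 0.05, adjusted p = 0.166 by edgeR's quasi-likelihood test). Cox5a and Cox5b, the other nuclear complex IV subunits listed as core, had values of 0.01 and -0.00. Cox7c had 0.21 with an SE of 0.12 and overlapping groups, and Ndufa4, first assigned to complex I and now counted as a complex IV subunit, -0.06. Cox6a1 had 0.06 with overlapping groups.

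Complex V, the ATP synthase, had 17 tested rows, with none called and a median log2 fold change of 0.01. Atp5a1 was at 498 and 521 CPM in WT and 564 and 553 CPM in Hnrnpf bKO (0.13, SE 0.05, adjusted p = 0.134 by edgeR's quasi-likelihood test). Atp5b was at 512 and 511 CPM in WT and 553 and 532 CPM in Hnrnpf bKO (0.08, SE 0.05). In both of these F1 subunits, which form the catalytic head, the groups did not overlap and the 95% interval lay within 1.3-fold. Atp5mpl, a small membrane subunit, was at 24.7 and 23.9 CPM in WT and 27.6 and 30.4 CPM in Hnrnpf bKO (0.26, SE 0.10, adjusted p = 0.143 by the same test), and Atp5g1, 1 of 3 genes for the proton-carrying c subunit, at 12.5 and 13.3 CPM in WT and 11.9 and 10.8 CPM in Hnrnpf bKO (-0.18, SE 0.14).

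Across the complexes, the 19 subunits listed as core had a median log2 fold change of 0.08, with 15 positive and 4 negative. This was 78.9% positive, against 49.0% of the tested genes averaging 100 counts or more. The core subunits ran from -0.13 for Ndufs3 to 0.14 for Ndufs8. None was called, 3 (15.8%) had an unadjusted p under 0.05, and all 19 intervals lay within 1.3-fold. Among the tested genes averaging 100 counts or more these shares were 8.94%, 23.9% and 67.0%.

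The isoforms that are restricted to other tissues were at or near 0 counts, with Cox7a1 and Cox6b2 as exceptions. Cox4i2 of lung, Cox7b2 and Cox8c of testis and Ndufa4l2, a hypoxia-induced paralog, had no count in any library. Cox6a2 and Cox8b, the heart and muscle isoforms, had at most 2 counts in a library. A level of 3 counts, the limit that a count of 0 allows, stood for 0.159 to 0.191 CPM by library, and these limits cover counting error alone. Cox7a1, a heart and muscle isoform, had 21 and 37 counts in WT and 29 and 25 counts in Hnrnpf bKO, and its groups overlapped. Cox6b2, known from testis, had 21 and 15 counts in WT and 6 and 10 counts in Hnrnpf bKO. Its groups did not overlap, and its log2 fold change of -1.10 had an SE of 0.53 and an adjusted p of 0.266 by edgeR's quasi-likelihood test, with a 95% interval from -2.25 to 0.04.

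In all, 11 members did not pass the filter. They were Cox4i2, Cox7b2, Cox8c, Ndufa4l2, Cox6a2, Cox8b, Cox6c2, Ndufa11b, Ndufb4c, Ndufs6b and the second Atp5o row, with at most 6 counts in any library. Of these, 6 had no count at all. Ndufb4c is 100% identical to Ndufb4 over the 390 bases aligned, which are 40.2% of the main Ndufb4 transcript, so that reads within those bases cannot be assigned to either.

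Several other members share sequence with copies elsewhere in the genome. Of the 98 members, 33 had a copy of at least 90% identity over at least 150 bases and 30% of the main transcript, with 67 different copies in all. Atp5l and Gm10221 were 100% identical over 309 bases, and Gm10221 held 166 and 228 counts in WT and 180 and 213 counts in Hnrnpf bKO. Uqcrb and Gm2962 were 98.2% identical, with 132 and 178 counts of the copy in WT and 106 and 140 counts of it in Hnrnpf bKO. The tested members with a copy had a median of 26.3 FPKM and those without 20.6 FPKM, and the split of reads between a member and its copies is uncertain. The exons of 34 members overlapped those of another gene, and since the library kit marks no strand, reads there cannot be assigned to a strand. Examples are Ndufs1 with Eef1b2, Ndufs3 with Kbtbd4, Ndufa2 with Tmco6, Cox4i1 with Emc8, Atp5a1 with Haus1, Ndufa13 with Tssk6 and Uqcrc2 with Pdzd9.

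The other genes of the pathway were taken from lists, each read against the 6.97% of tested genes that were called. None of the 13 mitochondrially encoded subunits was called, and their median log2 fold change was 0.01. The most abundant of them, mt-Co1, the catalytic subunit of complex IV, had 114878 and 142938 counts in WT and 103857 and 120330 counts in Hnrnpf bKO (-0.12, SE 0.05, adjusted p = 0.141 by edgeR's quasi-likelihood test). mt-Co3, another subunit of that complex, had 121 and 150 counts in WT and 127 and 132 counts in Hnrnpf bKO, and a gene annotated in the nucleus, Gm28437, was 100% identical to it over 783 bases. Of the 18 tested genes for cytochrome c, coenzyme Q and electron transfer flavoprotein, none was called and the median was -0.04; these included Cyc1, the cytochrome c1 of complex III, which the symbol rule does not hold, at 0.10. None of the 12 transcription regulators of the pathway was called, with a median of -0.02.

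Of the 41 tested assembly factors outside the symbol rule, 1 was called, 15 had a positive value and 26 a negative one, and the median was -0.03. The called gene was Surf1, which acts in the assembly of complex IV. It was at 42.9 and 44.7 CPM in WT and 58.8 and 60.7 CPM in Hnrnpf bKO. The groups lay well apart, with a log2 fold change of 0.45 (SE 0.08, adjusted p = 0.00351 by edgeR's quasi-likelihood test, 95% interval from 1.22-fold to 1.53-fold). With limma on log2(FPKM + 0.1) and log2(FPKM + 1) its adjusted p was 0.0634 and 0.0637. The exons of Surf1 overlap those of Surf2 on the opposite strand, which had 923 and 1096 counts in WT and 841 and 1033 counts in Hnrnpf bKO. Taco1, which acts in the translation of mt-Co1, had a log2 fold change of -0.46 (SE 0.13) and missed the threshold with an adjusted p of 0.0557 by the same test.

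Of the 14 enzymes of the tricarboxylic acid cycle, 1 was called. This was Idh3g, a regulatory subunit of the NAD-dependent isocitrate dehydrogenase, at 146 and 150 CPM in WT and 177 and 176 CPM in Hnrnpf bKO (log2 fold change 0.26, SE 0.05, adjusted p = 0.0106 by edgeR's quasi-likelihood test). Without WT replicate 1 its adjusted p was 0.0546, and with the same limma fits it was 0.0994 and 0.0991. The 6 tested carriers of adenine nucleotides and phosphate all had positive values, with a median of 0.06, and none was called. Slc25a4, which exchanges ADP and ATP across the inner membrane, had 0.24 (adjusted p = 0.0586), and Slc25a3, the phosphate carrier, 0.16 (adjusted p = 0.0607), by the same test.

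Of the 98 members, 3 had a row in the deposited table of splicing events that the authors called different between genotypes, a share of 3.06%. For members averaging 100 counts or more this was 2 of 83 (2.41%), against 10.6% of the tested genes at such counts, and over all tested genes it was 8.22%. Uqcrq and Cox6b2 had a retained intron event each, and Ndufs8 an alternative 5′ splice site event. Of the pathway lists, 2 of 19 electron carrier genes had rows (10.5%; Coq4 and Coq6), as did 3 of 42 assembly factors outside the symbol rule (7.14%; Surf1, Bcs1l and Uqcc1), 1 of 12 transcription regulators (8.33%; Polrmt) and 1 of 14 tricarboxylic acid cycle enzymes (7.14%; Idh3g), shares near that of all tested genes, and none of the mitochondrially encoded subunits or the carriers. Surf1 had an alternative 3′ splice site and a skipped exon, and Idh3g a skipped exon. The call of Cox7a2l had no splicing row beside it. The table names the gene and the type of event and gives no position, so the places below are those where the GENCODE M21 annotation holds an event of that type, and they need not be the events called.

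The protein encoded by Hnrnpf binds runs of guanines in RNA, and the start of each annotated intron is shown for that reason, with runs of 3 or more G in capitals. Uqcrq has 1 annotated intron that another of its transcripts retains, of 85 bases at GRCm38 chr11:53430703-53430787, minus strand, with 2 such runs in its length. Of the 2769 introns within 25% of that length that another transcript of the same gene retains, 55.4% had at least as many. Cox6b2 has 6 annotated candidates. The one shown, in the coding region, has 85 bases at chr7:4751976-4752060, minus strand, and 4 runs. Of the same 2769 retained introns, 19.3% had at least as many. The first 20 bases of each intron, 5′ to 3′, are
Uqcrq intron, chr11:53430768-53430787: gtagaggtgaccgatcctgg
Cox6b2 coding intron, chr7:4752041-4752060: gtgagaGGGcggagaGGGGt
The Cox6b2 intron shown opens with a pair of G runs and the Uqcrq intron with none. The first 20 bases differ between the Cox6b2 candidates, of which 3 have no G run there, and no value places the called event in any one of them.

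Ndufs8 (chr19:3908863-3912774, minus strand) has a pair of annotated donor sites at the end of its first exon, 3 bases apart in the 5′ UTR, at chr19:3912467 and chr19:3912470. The end of the longer exon, 5′ to 3′, with the bases that the shorter form leaves out in capitals, is
Ndufs8 exon 1 end, chr19:3912467-3912489: aggggaaggtctgagagaaaGTG
In counts per gene, which sum over isoforms, Ndufs8 and Uqcrq did not pass the test, with the values given above.

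As a feature that the symbol rule did not use, the promoter windows of the members, from 250 bases before to 50 bases after the RefSeq start on GRCm38.p6, were searched on both strands for the binding motifs of 3 factors known to act on respiratory genes. Windows were found for 76 of the 97 member symbols, 81 windows in all. The NRF1 core motif CGCATGCG, which reads the same on both strands, was in 11 of the 81 windows (13.6%), against 1.87% of all 32851 windows and 3.88% of the 12257 windows of tested genes. The YY1 motif AAGATGGC was also in 11 windows (13.6%, against 2.75% and 4.58%), and the ETS motif CCGGAAG, bound by GABPA, in 19 windows (23.5%, against 8.86% and 18.2%). The ETS and YY1 motifs can overlap by the bases AAG. The 11 NRF1 sites, shown 5′ to 3′ on the strand of the gene with the motif in capitals, spread over complexes I, III, IV and V:
Ndufa11, chr17:56717693-56717720, plus strand: ctgcactgcgCGCATGCGcgcacgcctt
Ndufa8, chr2:36049330-36049357, minus strand: tcgctggagaCGCATGCGcagatggtac
Ndufaf4, chr4:24897961-24897988, plus strand: cagatgtctgCGCATGCGcctgtgcgga
Ndufaf5, chr2:140170653-140170680, plus strand: gtcccgttggCGCATGCGcctaatagaa
Uqcr11, chr10:80406809-80406836, minus strand: atcgccttcaCGCATGCGctatacgtct
Uqcrc1, chr9:108936669-108936696, plus strand: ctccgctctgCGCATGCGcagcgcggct
Cox6a1, chr5:115349102-115349129, minus strand: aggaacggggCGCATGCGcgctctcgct
Atp5g2, chr15:102671071-102671098, minus strand: gctccggccgCGCATGCGcagagccttc
Atp5j, chr16:84835106-84835133, minus strand: ggccagaataCGCATGCGtacagtgcag
Atp5k, chr5:108434431-108434458, minus strand: ttcactgcggCGCATGCGcctttctggc
Atp5l, chr9:44920966-44920992, minus strand: aaccaataaCGCATGCGcatttccccc
The 11 tested members with this motif had a median log2 fold change of 0.00, and the 63 tested members whose windows lacked it had 0.02. Ndufaf5 and Ndufaf4, with the motif in both windows, lay at -0.31 and 0.28, near the opposite ends of the members.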

How the data were processed

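Poly(A) mRNA libraries (NEBNext Ultra) were made from FOB cells of 2 WT and 2 Hnrnpf bKO samples. The authors filtered reads with Cutadapt 1.9.1, aligned them to GRCm38 with HISAT2 2.0.1 and made the deposited counts with HTSeq 0.6.1. The strand setting and annotation release are not given in the sources used here. For the deposited FPKM the authors divided these counts by exonic size and library total. The deposited splicing table (rMATS) holds the authors' FDR and inclusion level difference, which were not used.

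Counts were tested with edgeR 4.0.16 (TMM, filterByExpr, quasi-likelihood F test), with p-values adjusted over 14123 genes by Benjamini-Hochberg. The study's methods name DESeq2, and DESeq2 1.42.0 was an alternative, beside RLE factors, other filters on low counts, limma 3.58.1 on log2(FPKM + 0.1 or 1) where the mean FPKM was 0.5 or more, mitochondrially encoded genes left out, the replicate number as a block, stricter and looser thresholds, and each library left out. The fit was tested on simulated data. The biological coefficient of variation was 5.90% and the median SE of a member's log2 fold change 0.08. Near-copies were found with blastn 2.17.0 in GENCODE M21 transcripts, whose genes matched 99.5% of the table, and promoter windows came from RefSeq.

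Members were named where they were called, nearest to the threshold, core or tissue-restricted subunits, the extremes or the highest FPKM of a complex (extremes at a mean of at least 100 counts), listed in the splicing table or below the filter. Ndufb8, Ndufa13, Ndufaf4, Cox7c, Uqcrb, Cox8a, Atp5l, the other members with a promoter motif and, outside the members, Taco1, Slc25a3, Slc25a4, Cyc1, mt-Co1, mt-Co3, other myeloid markers, other genes with splicing rows, copies and overlapping genes were named after their values were seen. The sums without Cox7a2l were an alternative chosen after seeing the data. The members and lists were chosen with earlier results of these data known. Some items are not reported here.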

Additional observations from a re-analysis of the deposited data

How the results depend on the processing

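Cox7a2l, Surf1 and Idh3g kept a positive log2 fold change under every alternative run, from 0.22 to 0.31, 0.42 to 0.48 and 0.24 to 0.28. The number of members called higher was 1, and became 0 with either limma fit and at a fold of at least 2, and 0 to 1 when each library was left out. With either limma fit 0 assembly factors outside the symbol rule and 0 tricarboxylic acid cycle enzymes were called higher. Without the filter on low counts 1 mitochondrially encoded gene and 1 assembly factor were called lower, 1 transcription regulator higher and 1 lower, and 2 carriers higher; with at least 10 counts in every library 1 regulator was called lower and 1 carrier higher. When each library was left out, with the lone library assumed to vary like the other genotype, the ranges were 0 to 1 mitochondrially encoded genes lower, 0 to 1 assembly factors lower and 0 to 2 tricarboxylic acid cycle enzymes higher. The medians then ran from 0.0050 to 0.083 for all members, -0.011 to 0.077 for complex I, 0.042 to 0.12 for complex II and 0.015 to 0.11 for complex IV. Calls over all genes were 985 of 14123 (6.97%), against 617 of 23692 with DESeq2 (2.60%) and 1470 of 23692 without the filter (6.20%). With limma they were 45 of 13570 (0.332%) on log2(FPKM + 0.1) and 41 of 13570 (0.302%) on log2(FPKM + 1). The cause of these differences was not tested.

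Values near 0 changed sign. With each library left out in turn, Ndufs7 ran from -0.025 to 0.069, Ndufv2 from -0.049 to 0.0029, Uqcrc1 from -0.019 to 0.052, Cox5a from -0.063 to 0.082, Cox5b from -0.021 to 0.017 and Ndufa2 from -0.024 to 0.11. With limma Cox5a was at -0.0028 (log2(FPKM + 0.1)) and -0.0027 (log2(FPKM + 1)).

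With the replicate number as a block, 1 member was called higher and 612 of 14123 genes in all (4.33%). The deviations of same-numbered samples from their genotype means had a correlation of -0.07 over genes. With 2 libraries of each genotype this cannot show whether samples were paired, and the labels name no pairs. The precision was lowest for members of few counts, such as Cox6b2, whose 95% interval ran from -2.25 to 0.04.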
